A study of Mus musculus with 8 samples.

Results

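The peroxisome genes described here are 44 listed symbols, 13 of them *Pex* genes, which build the organelle, and 31 of them peroxisomal enzymes and membrane proteins. They were taken as the rows of the array table whose gene symbol equals a listed symbol, with no use of the measured values. Of the 44 symbols, 40 had a probe (65 probes in all) among the 18120 symbols of the table, 12 in the *Pex* group and 28 in the enzyme group. No row carried the symbols *Pex26*, *Acaa1a*, *Acaa1b* or *Mvk*. A row under the name *Acaa1*, an older synonym of *Acaa1a*, was not taken because the symbol differs.

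Glomeruli were isolated from male FVB/N mice at 3 weeks of age, and total RNA of 4 *Cd151*+/+ and 4 *Cd151*-/- animals was hybridised, each animal on its own array (Illumina MouseRef-8 v1.1). *Cd151* encodes a tetraspanin that partners laminin-binding integrins, and its deletion in this strain leads to early proteinuria. The deletion is not restricted to podocytes, and the glomeruli were drawn with magnetic beads from digested kidney. Levels are given as normalised log2 signal, that is, array brightness corrected for background and quantile-normalised, and log2 fold changes are *Cd151*-/- minus *Cd151*+/+.

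Peroxisomes are single-membrane organelles that shorten very long and branched fatty acids, make ether lipid precursors, oxidise D-amino acids and break down hydrogen peroxide. Their enzymes are made in the cytosol and carried in by the receptors PEX5 and PEX7. In the kidney they are most plentiful in the cells of the proximal tubule, which burn fatty acids for fuel. Many genes of peroxisomal fatty acid oxidation in rodents are induced by the nuclear receptor PPARA, which binds as a pair with RXR to direct repeats of the hexamer AGGTCA.

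As sequence context for these genes, the 250 bases before the annotated start of *Acox2*, the member with the lowest p, and of *Slc27a2*, a member with the hexamer, are shown 5′ to 3′ from the RefSeq annotation of GRCm38.p6. Capitals mark AGGTCA on either strand, the opposite strand reading TGACCT. The *Acox2* stretch lies on the minus strand at chr14:8259020-8259269 and is the farther upstream of 2 annotated windows. The *Slc27a2* stretch lies on the plus strand at chr2:126552774-126553023, and its hexamer starts 220 bases before the gene start.
Acox2: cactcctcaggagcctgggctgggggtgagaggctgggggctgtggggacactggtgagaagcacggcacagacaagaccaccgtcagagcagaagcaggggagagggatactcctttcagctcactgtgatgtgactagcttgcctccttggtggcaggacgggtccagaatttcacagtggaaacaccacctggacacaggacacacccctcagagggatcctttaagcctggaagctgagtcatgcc
Slc27a2: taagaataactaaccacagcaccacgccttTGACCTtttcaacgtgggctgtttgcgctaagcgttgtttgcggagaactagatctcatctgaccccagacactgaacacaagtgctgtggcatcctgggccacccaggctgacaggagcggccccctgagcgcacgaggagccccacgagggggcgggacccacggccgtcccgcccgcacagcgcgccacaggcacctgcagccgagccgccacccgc
Promoter sequence was at hand for 36 of the 43 genes that the symbols stand for. The hexamer AGGTCA was found on either strand in 5 of them (13.9%), namely *Phyh*, *Scp2*, *Cat*, *Dao* (listed on the array as *Dao1*) and *Slc27a2*, against 18.1% of the 27025 genes with a promoter of the same length. The direct repeat of AGGTCA with 1 base between the copies was found in 0 of the 36 and in 0.0481% of all genes. These counts describe letters in a window of 300 bases around the start and say nothing about binding.

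The arrays were of unequal background. Array medians lay between 65.7 and 164 and the inferred background between 59.0 and 135, in 2 sets of 4 arrays with 2 mice of each genotype in each set. Higher background was seen for mice 3 and 4 among the *Cd151*+/+ and for mice 1 and 2 among the *Cd151*-/-, and lower background for the other mice. The labels do not say what the sets are, so the genotype difference is also given within each set. Each probe for *Cd151* itself detected it in all 4 *Cd151*+/+ animals and in 0 *Cd151*-/- animals. The podocyte gene *Podxl*, the endothelial genes *Pecam1* and *Ehd3* and the mesangial gene *Pdgfrb* were detected in every mouse, and so were the tubule genes *Slc34a1*, *Umod* and *Slc12a1*.

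None of the 36 members that could be tested differed between the genotypes after adjustment over all 14967 tested probes. Their adjusted p-values from limma with Benjamini-Hochberg adjustment ran from 0.918 to 0.997, while 5 probes (0.0334%) passed on the whole array. By brightest probe, 0.0089% of genes passed as higher and 0.0178% as lower. At an unadjusted limma p of 0.05, 1 member was higher in *Cd151*-/- glomeruli, *Acox2*, and 0 were lower. Over all 11240 genes tested, by their brightest probe, those shares were 1.9% and 2.47%, so the members' share lay near that background. With an equal-variance test 0 members passed at either level. Members other than *Acox2* passed at the unadjusted level when single mice were left out, namely *Pecr* (*Cd151*+/+ mouse 2), *Pxmp4* (*Cd151*+/+ mouse 3), *Idh1* and *Slc27a2* (*Cd151*+/+ mouse 4), *Scp2* (*Cd151*-/- mouse 2), and *Pex11a*, *Prdx5* and *Pxmp4* (*Cd151*-/- mouse 3), with 0 passing after adjustment. In those fits, in the order given, 1.23%, 2.06%, 3.14%, 3.12% and 4.39% of all genes were higher at the unadjusted level. None of the 36 tested members had genotype groups that did not overlap, in a table where 0.925% of genes lay wholly higher and 1.34% wholly lower.

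Most members nevertheless had a slightly higher mean in *Cd151*-/- glomeruli. The mean was higher for 8 of 10 *Pex* genes and 22 of 26 enzymes and membrane proteins, against 49.7% of all genes. The 22 include *Ehhadh* and *Hao3*, which entered the test through a *Cd151*-/- array only. *Pex10*, with a lower mean, entered through a *Cd151*+/+ array only. Where detection on all 4 arrays of a genotype was required, the counts were 8 of 9 and 17 of 21. The median log2 fold change was 0.16 for the 10 tested *Pex* genes (0.19, with a range of -0.04 to 0.53, for the 9 detected in both genotypes), 0.30 for the enzymes and membrane proteins (range -0.05 to 1.07) and -0.0018 over all genes. For the 24 enzymes and membrane proteins detected in both genotypes the median was also 0.30. The mean was over 1.5-fold higher for 5 members, all of them enzymes or membrane proteins (5.77% of all genes), and over 1.5-fold lower for 0 (3.64%). The 5 were *Acox2*, *Prdx5*, *Pxmp4*, *Slc27a2* and *Cat*.

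**Figure D1:**
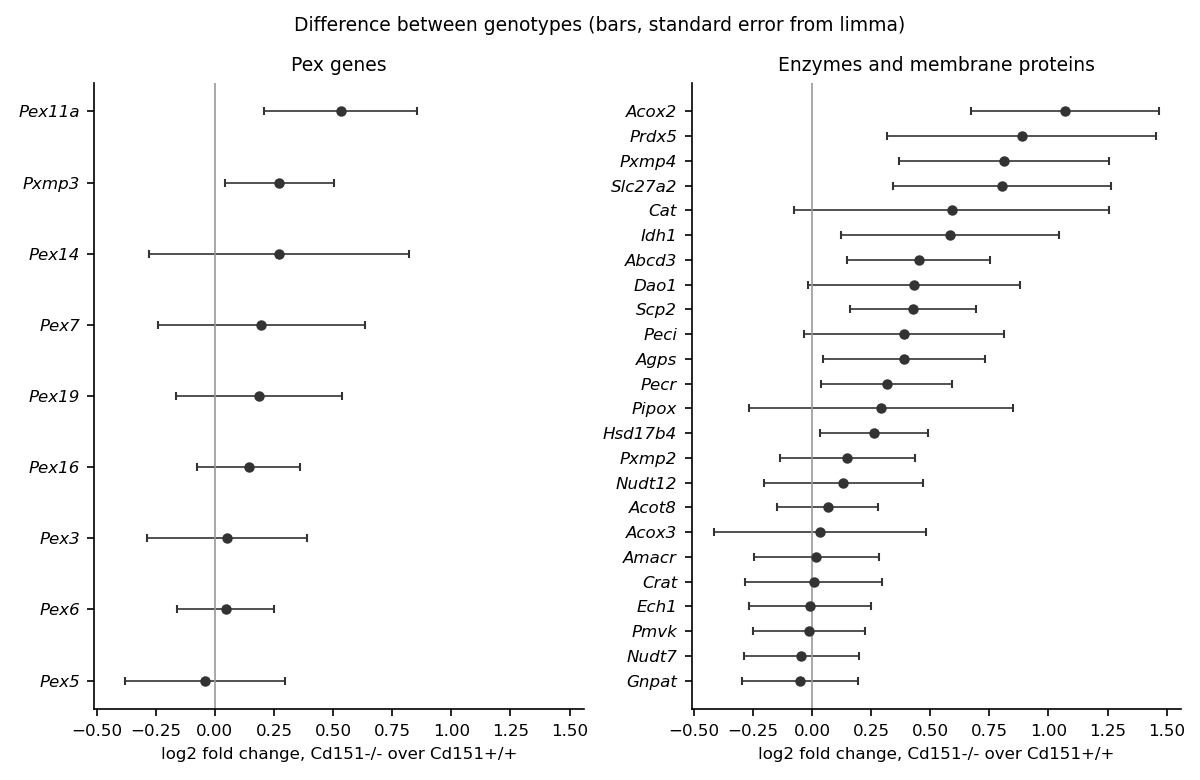
Log2 fold change of each peroxisomal gene, *Cd151*-/- over *Cd151*+/+ (x axis), with the standard error from limma as bars, for 9 *Pex* genes and 24 enzymes and membrane proteins detected in both genotypes (n = 4 mice each). Points lie between -0.05 and 1.07, most of them right of 0, with *Acox2* farthest from it.

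*Pex3*, *Pex16* and *Pex19* place proteins in the peroxisomal membrane. Their log2 fold changes were 0.05 (standard error 0.34), 0.14 (0.22) and 0.19 (0.35), each with overlapping groups. *Pex19* is an example of a gene whose level followed the array sets. It read 9.99, 9.61, 10.80 and 10.80 in *Cd151*+/+ mice 1 to 4, against 11.09, 10.79, 9.88 and 10.17 in *Cd151*-/- mice 1 to 4. The 4 arrays with the higher background gave the 4 highest levels, with a mean difference of 0.96 between the sets against 0.19 between the genotypes.

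*Pex5* and *Pex7* encode the import receptors for the C-terminal and N-terminal targeting signals. Their differences were -0.04 (standard error 0.34) and 0.20 (0.44). The other tested probes for *Pex5* differed by 0.13 and 0.38, so its probes did not share a direction. *Pex14* encodes a docking protein for the loaded receptors. Its level was 6.28, 6.81, 8.59 and 7.78 in *Cd151*+/+ mice 1 to 4 and 8.40, 8.51, 6.67 and 6.96 in *Cd151*-/- mice 1 to 4. The genotypes overlapped almost fully, with means of 7.37 ± 1.02 (SD, n = 4) and 7.64 ± 0.95 (n = 4) and a log2 fold change of 0.27 (standard error 0.55, exact permutation test, p = 0.686), which turned to -0.09 without *Cd151*+/+ mouse 1 and to -0.02 without *Cd151*-/- mouse 2. The array sets, in contrast, differed by 1.64 in the mean of *Pex14*.

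*Pex2* and *Pex10* encode RING-finger proteins of the ubiquitin ligase that recycles PEX5. The array lists *Pex2* under its older symbol *Pxmp3*. The level of *Pxmp3* was 9.57, 9.43, 9.82 and 10.06 in *Cd151*+/+ mice 1 to 4 and 10.10, 10.06, 9.59 and 10.22 in *Cd151*-/- mice 1 to 4. Of the *Cd151*-/- mice, 2 lay above every *Cd151*+/+ mouse and the others did not. The log2 fold change was 0.27 (standard error 0.23, exact permutation test, p = 0.2), and 0.18 without *Cd151*+/+ mouse 2. A probe that the array names *Pex2* was not detected in any mouse. That symbol is also an older synonym of *Pex5l*, so which gene this probe reads is uncertain. *Pex10* read 4.58, 4.87, 5.59 and 4.92 in *Cd151*+/+ mice and 5.04, 4.69, 4.43 and 4.72 in *Cd151*-/- mice. It was above background in 1 *Cd151*+/+ mouse and in 0 *Cd151*-/- mice, so no fold is given. *Pex13*, a partner of PEX14 in docking, was not detected in any mouse.

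*Pex6* encodes an ATPase that pulls PEX5 back out of the membrane. Its brightest probe differed by 0.04 (standard error 0.21) and a dimmer probe by -0.40, neither past the test. *Pex11a*, whose product elongates peroxisomes before they divide, had the largest difference of the *Pex* genes. Its level was 8.18, 7.83, 8.95 and 8.50 in *Cd151*+/+ mice 1 to 4 and 9.50, 8.62, 8.27 and 9.20 in *Cd151*-/- mice 1 to 4. The highest values were those of *Cd151*-/- mice 1 and 4, while the other *Cd151*-/- mice lay within the *Cd151*+/+ range. The means were 8.36 ± 0.48 (SD, n = 4) and 8.90 ± 0.55 (n = 4), a log2 fold change of 0.53 (standard error 0.32, unadjusted p = 0.131 from limma, exact permutation test, p = 0.171). A second detected probe for *Pex11a* differed by nearly the same amount, 0.53. The difference was 0.73 on the lower-background arrays and 0.33 on the higher-background arrays. It was 0.35 without *Cd151*+/+ mouse 2, 0.33 without *Cd151*-/- mouse 1 and 0.95 with array weights (adjusted p = 0.0908 from limma).

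Among the enzymes, those of branched-chain and bile acid side-chain oxidation come first. *Acox2*, the oxidase that starts the shortening of bile acid precursors and branched fatty acids, had the largest difference of all members. Its level was 8.39, 7.80, 9.09 and 9.27 in *Cd151*+/+ mice 1 to 4 and 10.24, 9.41, 8.89 and 10.28 in *Cd151*-/- mice 1 to 4. *Cd151*-/- mice 1, 2 and 4 lay above every *Cd151*+/+ mouse, and mouse 3 lay within their range. The means were 8.64 ± 0.68 (SD, n = 4) and 9.71 ± 0.68 (n = 4), a 2.10-fold difference. The log2 fold change of 1.07 had a standard error of 0.40, with an unadjusted p of 0.0211 and an adjusted p of 0.918 from limma. The exact permutation test over the 70 relabelings gave p = 0.114. The difference was 1.49 on the lower-background arrays and 0.65 on the higher-background arrays. *Acox2* no longer passed at 0.05 when mouse 1 or mouse 2 of the *Cd151*+/+ group was left out (log2 fold change 0.99 and 0.79), or mouse 1 or mouse 4 of the *Cd151*-/- group (0.89 and 0.88).

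No other gene of that pathway passed the unadjusted test. *Acox3*, a second branched-chain oxidase, differed by 0.03 (standard error 0.45), and *Amacr*, the racemase that prepares branched substrates, was detected in 1 mouse of each genotype. *Phyh*, the hydroxylase that begins phytanic acid breakdown, was not detected in any mouse. *Hsd17b4*, the multifunctional enzyme of the next steps, was close to equal in the 4 *Cd151*+/+ mice, at 12.39 to 12.46, and spread from 12.21 to 13.14 in the 4 *Cd151*-/- mice. *Scp2*, which encodes the thiolase that ends the cycle together with a sterol carrier, read 12.27, 12.30, 12.39 and 12.84 in *Cd151*+/+ mice and 13.08, 12.35, 12.68 and 13.40 in *Cd151*-/- mice. The log2 fold change of *Scp2* was 0.43 (standard error 0.27, exact permutation test, p = 0.2). Its other detected probes differed by 0.03 and 0.35.

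Other members act before or beside these steps. *Slc27a2* encodes the synthetase that activates very long chain fatty acids at the membrane. Its level was 10.52, 10.56, 11.57 and 12.43 in *Cd151*+/+ mice 1 to 4 and 12.53, 11.53, 11.44 and 12.80 in *Cd151*-/- mice 1 to 4. The spread inside each genotype was as wide as the difference, 0.80 (standard error 0.46, exact permutation test, p = 0.229), which was 1.57 on the lower-background and 0.03 on the higher-background arrays. *Abcd3*, the transporter that imports branched-chain and bile acid precursor acyl-CoA, differed by 0.45 (standard error 0.30), again 0.89 within the lower and 0.01 within the higher set. *Ehhadh*, the bifunctional enzyme that PPARA induces, was above background only in *Cd151*-/- mouse 4. It read 4.68 to 4.98 in *Cd151*+/+ mice and 4.59, 4.83, 5.16 and 5.82 in ascending order in *Cd151*-/- mice, so no fold is given.

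The auxiliary enzymes for unsaturated and shortened fatty acids had differences from -0.04 to 0.39. *Ech1* differed by -0.01, *Peci* (*Eci2*) by 0.39 and *Pecr* by 0.32. *Peci* was detected in 2 *Cd151*+/+ and 3 *Cd151*-/- mice and differed by 0.96 between the array sets. *Pecr* was detected in 1 *Cd151*+/+ and 4 *Cd151*-/- mice. *Crat*, which passes shortened chains on to carnitine, differed by 0.01, and *Acot8*, which frees them from CoA, by 0.07. *Crot*, the carnitine transferase for medium chains, was not detected in any mouse. The hydrolases *Nudt7* and *Nudt12*, which degrade CoA and NADH, differed by -0.04 and 0.13. None of the tested genes among these passed an unadjusted limma p of 0.05.

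Of the redox enzymes, *Prdx5*, a peroxiredoxin of peroxisomes, mitochondria and cytosol, had the second-largest difference. Its level was 8.67, 8.76, 10.29 and 10.71 in *Cd151*+/+ mice 1 to 4 and 11.44, 10.89, 9.07 and 10.56 in *Cd151*-/- mice 1 to 4. The means were 9.61 ± 1.05 (SD, n = 4) and 10.49 ± 1.01 (n = 4), a log2 fold change of 0.89 (standard error 0.57, exact permutation test, p = 0.2). A dimmer probe differed by 0.39. The symbol *Prdx5* is also a synonym of *Prdx6*, and which gene its probes read was not tested. The array sets differed by more, 1.57, and within them the genotypes differed by 1.11 (lower) and 0.67 (higher). With the array set as a block *Prdx5* passed at an unadjusted 0.05 (adjusted p = 0.379 from limma), where 5.21% of all genes were higher at that level. Leaving out mouse 1 of either genotype gave a difference of 0.57 and leaving out *Cd151*-/- mouse 3 one of 1.36, while array weights gave 1.84. *Cat*, catalase, was above background in 5 mice, 2 of them *Cd151*+/+, with a difference of 0.59 (standard error 0.67) against 1.97 between the array sets. *Idh1*, which makes NADPH, differed by 0.58 (standard error 0.46), with 1.38 on the lower-background arrays and -0.22 on the others.

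The amino and hydroxy acid oxidases varied widely between mice. By its brightest probe *Pipox*, which oxidises sarcosine and pipecolate, ran from 7.48 to 10.77 among the *Cd151*-/- animals. The *Cd151*+/+ animals lay between 8.20 and 9.30. Its genotype difference was 1.49 on the lower-background and -0.91 on the higher-background arrays, 0.29 in all. *Dao1*, D-amino acid oxidase, went the same way, with 1.31, -0.45 and 0.43. *Hao3* (*Hao2*), a hydroxyacid oxidase, was above background only in *Cd151*-/- mouse 1, so no fold is given.

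*Agps* and *Gnpat* catalyse the first steps of ether lipid synthesis on the inner face of the peroxisome. *Gnpat* differed by -0.05 (standard error 0.24). *Agps* read 10.65, 10.63, 10.66 and 10.39 in *Cd151*+/+ mice and 10.68, 10.38, 10.71 and 12.12 in *Cd151*-/- mice. A single animal, *Cd151*-/- mouse 4, carried its difference of 0.39. *Pmvk*, of the mevalonate pathway, differed by -0.01. Of the peroxisomal membrane proteins, *Pxmp2*, a channel protein, differed by 0.15 and *Pxmp4* by 0.81 (standard error 0.44). *Pxmp4* read 6.54, 5.62, 7.80 and 6.67 in *Cd151*+/+ mice 1 to 4 and 8.13, 7.64, 6.61 and 7.49 in *Cd151*-/- mice 1 to 4 (exact permutation test, p = 0.257). Its difference was 0.97 within the lower and 0.65 within the higher set, and *Pxmp4* passed at an unadjusted 0.05 with the array set as a block (adjusted p = 0.417 from limma). It was 0.47 without *Cd151*+/+ mouse 2, 0.48 with no background correction and 1.46 with array weights, and 1.19 on leaving out *Cd151*+/+ mouse 3.

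**Figure D2:**
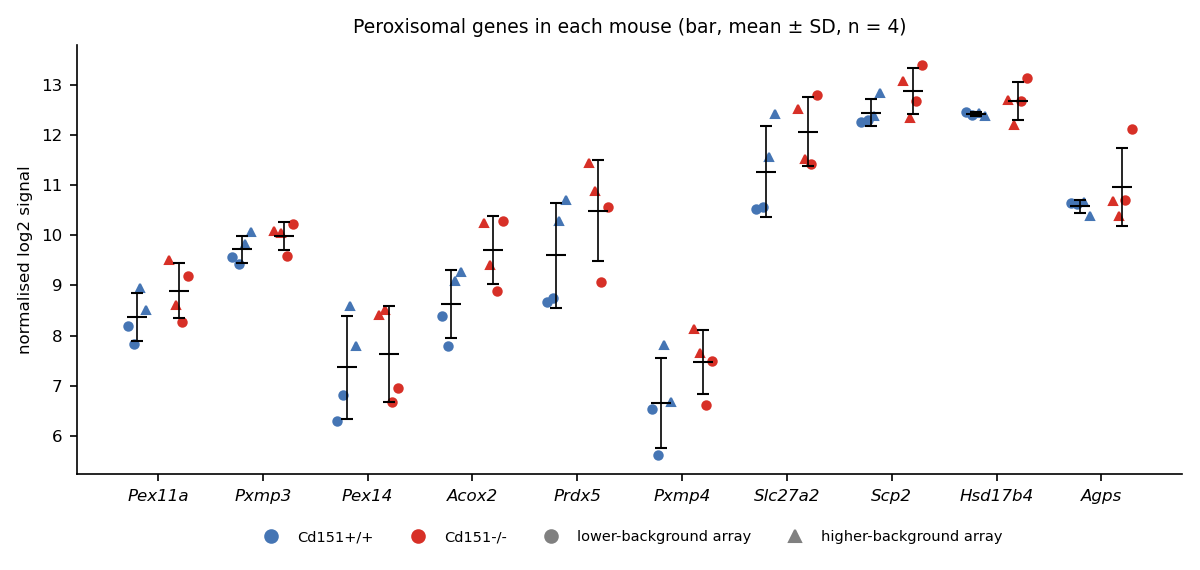
Normalised log2 signal (y axis) of 10 peroxisomal genes in each mouse, with *Cd151*+/+ in blue and *Cd151*-/- in red, circles for lower-background and triangles for higher-background arrays, and bars for the mean ± SD (n = 4). The genotypes overlap for every gene, the triangles lie above the circles for *Pex14*, and *Cd151*-/- mouse 4 stands alone for *Agps* at 12.12.

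The array sets were also compared directly. For 9 of 10 *Pex* genes and 17 of 26 enzymes and membrane proteins, the mean difference between the sets was larger in size than that between the genotypes (69.1% of all genes). The median size of the difference between sets was 0.69 for the *Pex* genes and 0.43 for the enzymes, against 0.37 over all genes. Within the lower-background set, 26 of 26 enzymes and membrane proteins had a higher mean in the 2 *Cd151*-/- mice (47.8% of all genes), with a median difference of 0.45. Within the higher-background set the count was 14 of 26 (49.3% of all genes), with a median of 0.01. Both counts include *Ehhadh* and *Hao3*, which only *Cd151*-/- arrays detected. The *Pex* genes gave medians of 0.22 and 0.13 in those sets. With 2 mice of each genotype per set, no test was made of the difference between sets.

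**Figure D3:**
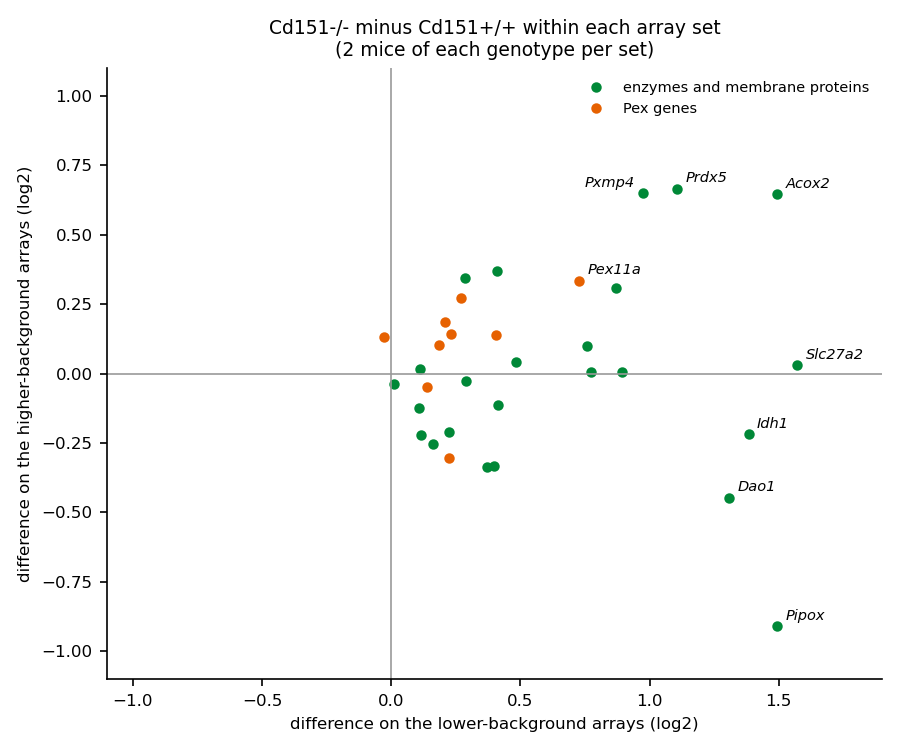
Genotype difference (log2, *Cd151*-/- minus *Cd151*+/+) of each peroxisomal gene detected in both genotypes, on the lower-background arrays (x axis) and the higher-background arrays (y axis), 2 mice of each genotype per set, enzymes and membrane proteins in green and *Pex* genes in orange. *Acox2*, *Prdx5* and *Pxmp4* lie above 0.6 on both axes, while *Slc27a2*, *Idh1*, *Dao1* and *Pipox* lie above 1.3 on the x axis and between 0.03 and -0.91 on the y axis.

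Within the lower-background set, the enzymes stood highest in 1 animal. *Cd151*-/- mouse 4 had the highest level of the 8 mice for 18 of 26 enzymes and membrane proteins and for 3 of 10 *Pex* genes, while it was highest for 18.1% of all genes. *Ehhadh*, 1 of the 18, was detected in that mouse only. In that mouse the enzymes lay 0.64 above each gene's mean over the 8 mice (median, log2 scale). The other *Cd151*-/- mice lay at 0.19, -0.20 and -0.23, and the *Cd151*+/+ mice at -0.36, -0.26, -0.11 and 0.30. Without *Cd151*-/- mouse 4 the median log2 fold change of the enzymes was 0.05 in place of 0.30, and 17 of 26 had a higher mean. The *Pex* genes did not rest on that mouse, with a median of 0.17 without it. Their median fell to 0.05 without *Cd151*+/+ mouse 1, to 0.03 without *Cd151*+/+ mouse 2, to 0.03 without *Cd151*-/- mouse 1 and to 0.08 without *Cd151*-/- mouse 2, and rose to 0.26 without *Cd151*+/+ mouse 3 and to 0.30 without *Cd151*-/- mouse 3.

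Markers of the proximal tubule varied in the same animals. Of 31 listed markers 27 had a probe and 24 were tested, including *Slc27a2*, which is also a member. Of the 24, 23 had a higher mean in *Cd151*-/- mice (49.7% of all genes). These include *Lrp2*, *Gatm*, *Pck1* and *Akr1c21*, which entered the test through *Cd151*-/- arrays only. At an unadjusted limma p of 0.05, 3 of the 24 were higher (1.9% of all genes), and 0 passed after adjustment. *Slc22a8* was 1 of the 3 and the 1 marker whose groups did not overlap (0.925% of all genes lay wholly higher). Its log2 fold change was 1.45 (adjusted p = 0.744 from limma). *Slc22a8* was above background in 1 *Cd151*+/+ mouse and in 4 *Cd151*-/- mice, so that fold was taken largely against background. Over the 24 markers the median difference was 1.37 within the lower-background set and 0.03 within the higher. Without *Slc27a2* the markers' median log2 fold change was 0.64, and 0.42 to 0.98 with each mouse left out (0.42 on leaving out *Cd151*+/+ mouse 1, also 0.42 on leaving out *Cd151*-/- mouse 4, and 0.98 on leaving out *Cd151*+/+ mouse 4). Their summed linear signal was 42927, 55594, 74921 and 121220 in *Cd151*+/+ mice 1 to 4 and 122500, 82080, 69220 and 152790 in *Cd151*-/- mice 1 to 4. The summed linear signal of the enzymes and membrane proteins was 28864, 28753, 33690 and 44556 in *Cd151*+/+ mice 1 to 4 and 46025, 32135, 34378 and 64818 in *Cd151*-/- mice 1 to 4. Both sums were highest in *Cd151*-/- mouse 4, and the lowest was *Cd151*+/+ mouse 1 for the markers and *Cd151*+/+ mouse 2 for the enzymes. Of the defining markers, *Slc34a1*, *Slc5a2* and *Slc22a6* were detected in every mouse, *Lrp2* in 2 mice, both *Cd151*-/-, and *Cubn* had no probe under that symbol. In RNA of whole glomerular isolates, a different share of tubule cells and a different amount of RNA per cell cannot be told apart, and the part of the tubule markers in the enzyme levels was not tested.

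Markers of glomerular cells had lower means in *Cd151*-/- mice. The mean was lower for 9 of 10 tested podocyte markers (13 listed, median log2 fold change -0.19) and for 9 of 10 endothelial markers (median -0.39), with 1 and 0 of them past an unadjusted limma p of 0.05. The endothelial marker *Kdr*, counted as lower, was detected in *Cd151*+/+ mice only. The podocyte marker *Foxc2*, counted as higher, was detected in *Cd151*-/- mice only. In *Cd151*-/- mouse 4 the median deviation of the podocyte markers was -0.57 and that of the endothelial markers -0.51, the lowest of the 8 mice for either list. The summed podocyte signal was 108700 to 114660 in the *Cd151*+/+ mice, against 94540 to 115730 in the *Cd151*-/- mice. The part of these markers in the enzyme levels was not tested. Among distal nephron markers, 8 tested of 10 listed, the sum was 35313 to 60566 in the *Cd151*+/+ mice, against 22767 to 45009 in the *Cd151*-/- mice, with the lowest value in *Cd151*-/- mouse 4. For mesangium and smooth muscle, erythroid cells and leukocytes, the median log2 fold changes were -0.05, -0.63 and 0.02, over 5, 4 and 7 tested genes. At an unadjusted limma p of 0.05, the smooth muscle gene *Acta2* was higher (log2 fold change 0.71) and *Pdgfrb* lower (-0.74). The erythroid genes *Hba-a1* (-0.69) and *Alas2* (-2.57) were also lower at that level, and no leukocyte marker passed. Over all genes those shares were 1.9% higher and 2.47% lower. None of these markers passed after adjustment.

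**Figure D4:**
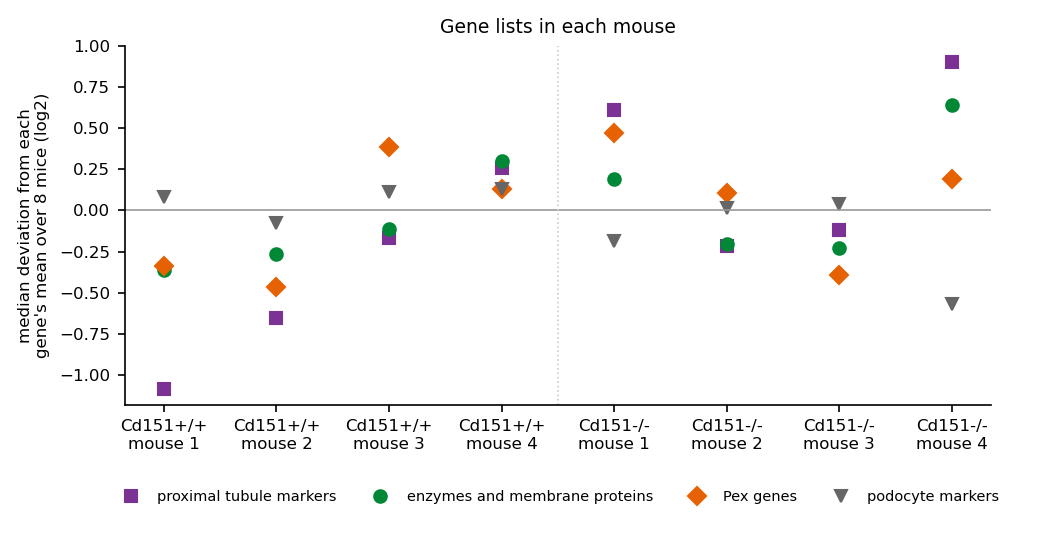
Median deviation (log2) of 4 gene lists from each gene's mean over the 8 mice (y axis), for each mouse (x axis): proximal tubule markers, peroxisomal enzymes and membrane proteins, *Pex* genes and podocyte markers. Enzymes and proximal tubule markers are highest in *Cd151*-/- mouse 4, at 0.64 and 0.90, where podocyte markers are lowest at -0.57. *Pex* genes range from -0.46 to 0.47.

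Other peroxisomal genes were also examined. Of 52 further genes, which include enzymes shared with other compartments, 34 had a probe and 25 were tested. The mean was higher for 17 (49.7% of all genes) and lower for 8, with a median log2 fold change of 0.18. At an unadjusted limma p of 0.05, 1 was higher (1.9% of all genes) and 0 lower (2.47%), and 0 passed after adjustment. *Ephx2*, the soluble epoxide hydrolase, was that gene. It read 7.13, 7.62, 8.09 and 8.16 in *Cd151*+/+ mice 1 to 4 and 9.49, 8.08, 7.99 and 9.92 in *Cd151*-/- mice 1 to 4. The log2 fold change of *Ephx2* was 1.12 (standard error 0.44, unadjusted p = 0.0282 and adjusted p = 0.918 from limma, exact permutation test, p = 0.171), and *Cd151*-/- mice 1 and 4 held the 2 highest levels.

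Genes under PPARA and of mitochondrial fatty acid oxidation were measured as the neighbouring pathway. *Ppara* itself was not detected in any mouse. Of 43 listed genes 35 had a probe and 30 were tested, with 22 higher (49.7% of all genes) and 8 lower means. The median log2 fold change was 0.18, with 0.48 within the lower-background set and -0.06 within the higher. *Acot1*, a cytosolic acyl-CoA thioesterase, was the 1 gene higher at an unadjusted limma p of 0.05 (1.9% of all genes), and 0 were lower (2.47%). It read 10.08, 10.75, 10.88 and 11.30 in *Cd151*+/+ mice 1 to 4 and 11.64, 11.20, 11.09 and 12.22 in *Cd151*-/- mice 1 to 4. The log2 fold change of *Acot1* was 0.78 (standard error 0.32, unadjusted p = 0.0336 and adjusted p = 0.918 from limma, exact permutation test, p = 0.0857). *Cyp4a14*, an omega-hydroxylase that PPARA strongly induces, differed by 1.19 without passing (unadjusted p = 0.0833 from limma, exact permutation test, p = 0.143). Its highest level, 11.32, was that of *Cd151*+/+ mouse 4, above the *Cd151*-/- range of 9.59 to 10.52. The other *Cd151*+/+ mice lay at 8.35 or lower.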

How the data were processed

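The authors deposited 1 table of signal intensity and detection p-values for 25697 probes on 8 arrays, read with the BeadArray Reader per the methods and exported with GenomeStudio, the tool that the submitters' processing notes name. The deposited intensity is neither background-subtracted nor normalised, and the deposited p-value is the share of negative-control probes at least as bright. The study's own values were cubic-spline normalised and are not in this table.

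In R 4.3.3, limma 3.58.1 was used for neqc (offset 16, quantile normalisation, background inferred from detection), lmFit and eBayes. A probe entered the test if any array detected it at 0.05, which left 14967 probes, and Benjamini-Hochberg adjustment ran over all of these. A gene detected in 1 genotype only thus counts among the higher or lower means, in a direction that the detection favours. Each gene is given by its brightest tested probe over the 8 mice. The members *Pex10*, *Ehhadh* and *Hao3*, not above background on any array of a genotype, get no fold, since its bound was below 1. Their mean differences still enter the medians and counts. Exact permutation tests were two-sided. Each mouse is a separate animal. Values per mouse are given for members past an unadjusted p of 0.05, without overlap, or among the 4 largest differences of each group, and for some others chosen after their values were seen (*Pex19*, *Scp2*, *Agps*, *Ehhadh*, and as ranges or in a plot *Pipox* and *Hsd17b4*). The members, lists and alternatives were chosen with earlier results of these data known. Other peroxisomal and PPARA genes are named at an unadjusted p of 0.05, and *Ppara* and *Cyp4a14* were added after their values were seen. The fit was tested on simulated data with independent noise for each probe and array. That simulation held no difference between array sets, so it cannot show how the fit behaves under one. The number of arrays and the signal of detected probes, 3.00 to 4.46 times background at the median, limit the precision. RefSeq gene and promoter tables of GRCm38.p6 served for names and promoters only. The symbols *Cat* and *Pex3* are also synonyms of *Mip* and *Dcaf8l*, and the array's own naming was followed. Alternatives were background correction, normalisation, offset, filters, blocks, variance model, array weights, an equal-variance test, averaged probes and each mouse left out.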

Additional observations from a re-analysis of the deposited data

Results flagged for a closer look

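Within the 4 mice of a genotype, 3 values stood apart from the others by more than Dixon's critical value, among 82 groups of 4 examined, where chance gives about 1 in 20. *Amacr* was at 5.60 in *Cd151*-/- mouse 4, with the next mouse at 4.94. *Agps* was at 10.39 in *Cd151*+/+ mouse 4, below 10.63 in the next. *Pmvk* was at 7.58 in *Cd151*+/+ mouse 4, above 7.08 in the next.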

How the results depend on the processing

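No member passed Benjamini-Hochberg adjustment in limma under any alternative, the lowest adjusted p of the 7 members followed singly being 0.0885, with array weights. The number of members higher at an unadjusted p of 0.05 was 1, and it was 3 with the array set as a block (*Acox2*, *Prdx5* and *Pxmp4*), 14 with array weights, 0 in the equal-variance test and 0 to 4 with each mouse left out. With array weights 15.4% of all genes were higher and 16.4% lower at that level. With the array set as a block those shares were 5.21% and 5.63%, against 1.9% and 2.47% without a block. Without *Cd151*-/- mouse 3, where 4 members passed, they were 4.39% and 5.13%. No member was lower at that level under any alternative. Over all probes 5 passed after adjustment, 8 with the array set as a block, 3 in the equal-variance test and 4 to 6 with a mouse left out. The median of the *Pex* genes was 0.10 to 0.53 over the other alternatives, the highest with array weights, and 0.03 to 0.30 with a mouse left out. That of the enzymes was 0.19 to 0.39 and 0.05 to 0.38. With a mouse left out *Pex14* ran from -0.091 (without *Cd151*+/+ mouse 1) to 0.68, and it was -0.022 without *Cd151*-/- mouse 2, and the other members followed singly kept their direction. The causes were not tested. Correlations of deviations between mice of the same number were -0.58, -0.40, -0.53 and -0.01. Each number joins a lower-background and a higher-background array, so these values cannot tell whether the numbers pair the animals. With the mouse number as a replicate block, 4 probes passed, 1 member was higher and 0 lower, and the medians stayed at 0.16 and 0.30. Depth of signal limits *Pex10*, *Ehhadh*, *Hao3* and *Amacr*, which few arrays detected. *Cat*, *Peci*, *Pecr* and *Pex7* were also not detected in every mouse.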
